A study of Drosophila melanogaster with 4 samples.

Results

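Long stretches without H1 clusters were taken from the 4 large autosomal arms of the fruit fly, 2L, 2R, 3L and 3R. They are gaps of 20000 bp or more between neighbouring enriched regions, or clusters, in the list that the authors made for both H1 ChIP replicates together. The members were chosen by this measured gap length, so their number and lengths are descriptions. They number 881 of 12082 gaps on the 4 arms, or 7.29%. The study used 4 samples of chromatin from head nuclei of wild-type Oregon-R flies of mixed adult stage, with 2 H1 ChIP replicates and 2 input samples, 1 for each ChIP replicate. All groups share strain, stage and tissue. The labels name no treatment and give neither sex nor whether the replicates came from separate fly collections. Heads hold neurons, photoreceptors, muscle and fat, so the lists average over cell types. Input samples had no list and entered only through the authors' calls.

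H1 is the linker histone. It sits on the outside of the nucleosome, where the DNA enters and exits, and helps nucleosome arrays to fold more tightly. Flies make a somatic H1 from the repeated histone genes, and loss of this protein is known to disturb heterochromatin and to release transposable elements. Active promoters and enhancers are known in many species as places with less H1. A cluster marks more H1 signal than input, so a gap is a stretch in which no enrichment was called and is not proof of missing H1.

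The lists differ much in density. On the 4 arms the combined list holds 12086 clusters over 22.5 Mb, or 23.3% of the bases. Replicate 1 has 2295 clusters (3.96% of bases) and replicate 2 has 1821 clusters (3.19%). The mean gap was 6.12 kb in the combined list, 40.3 kb in replicate 1 and 51.2 kb in replicate 2. Clusters are numbered without a break in each list, so no numbered row is missing inside a gap. Calls removed before the numbering would not show. The depth of the libraries is unknown.

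Long gaps held much of the sequence outside clusters. They summed to 34.5 Mb, which is 35.7% of the 4 arms and 46.7% of all gap bases. The median long gap measured 31349 bp and the middle 50% ran from 24895 to 45184 bp. Of the 881, 227 were shorter than 25000 bp, 185 reached 50000 bp and 21 reached 100000 bp. The 185 gaps of 50000 bp or more made up 39.2% of long-gap bases. Members just past the threshold measured 20030 bp on 3L, 20094 bp on 3R and 20109 bp on 2L. The longest gaps short of it measured 19969 bp on 3L, 19929 bp on 3R and 19912 bp on 3L, so nothing sets the 20-kb limit apart.

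Gap lengths were spread more widely than randomly placed clusters would give. When the same clusters are placed at random on their own arm without overlap, the mean number of long gaps follows from a formula. The combined list had 881 long gaps, against a mean of 466.6 ± 16.0 (SD of the formula) for random placement, a ratio of 1.89. Gaps of 50000 bp or more numbered 185, against 3.91 for random placement. Gaps shorter than 1 kb were in excess too, at 3783 against 1824.9. In between, gaps of 5 to 10 kb numbered 1695 against 2972.7, and gaps of 10 to 20 kb numbered 984 against 1894.2. The excess of long gaps therefore depends on the limit, since 1231 gaps reached 15000 bp against 1048.0 for random placement, a ratio of 1.17. At 30000 bp the ratio was 5.11. The higher-scoring 50% of clusters, with scores of 0.439 or more, was set over all sequences of the combined list. On the 4 arms it left 4695 of 12086 clusters. The mean gap then rose to 18.5 kb and the ratio at 20000 bp turned to 0.789. When only clusters of 1301 bp or more were kept, the mean gap rose to 10.1 kb and the ratio turned to 0.963. With a limit at 3.27 times the mean gap, as in the full list, the ratios were 1.89 and 1.95. No p is attached to these ratios, because the combined list has no replicate.

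**Figure D1:**
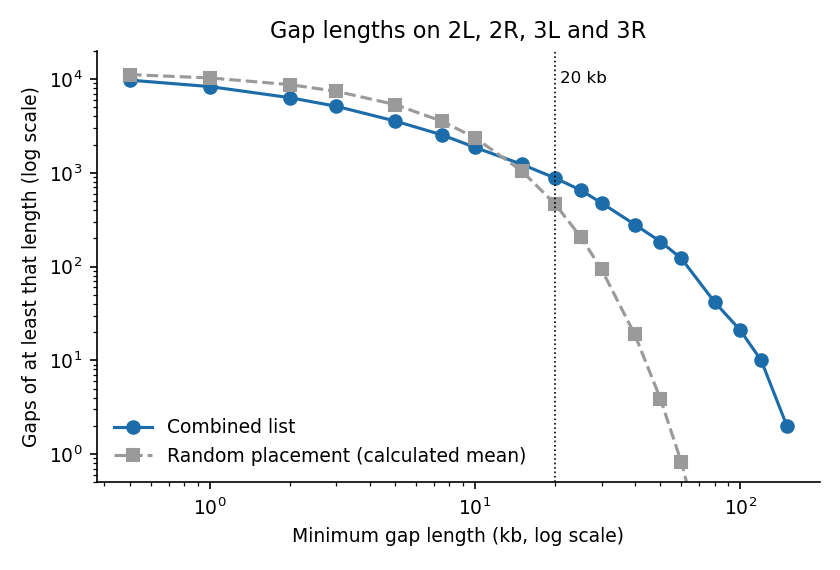
Number of gaps (vertical axis, log scale) of at least a given length (horizontal axis, kb, log scale) on 2L, 2R, 3L and 3R, for the combined list (circles) and for the calculated mean of random placement (squares). The lines cross between 10 and 15 kb, and at 20 kb (dotted line) 881 gaps stand against 466.6.

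The replicate lists, called separately, showed a like spread. With the limit at 3.27 times their own mean gap, replicate 1 had 144 gaps of 131.7 kb or more, against 89.8 for random placement. Replicate 2 had 143 gaps of 167.4 kb or more, against 71.4. The ratio averaged 1.80 ± 0.283 (SD, n = 2 replicates). The longest gap of replicate 1 had 499569 bp and that of replicate 2 had 929519 bp, and the denser combined list reached 188918 bp.

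Every one of the 4 arms carried long gaps along its full length, in similar amounts. The density was highest on 2R, with 213 gaps over 38.9% of the arm and 10.1 per Mb. The largest number was on 3R, with 245 gaps over 36.0% of its length, or 8.78 per Mb. Arm 2L had 206 over 34.8%, or 8.95 per Mb, and 3L had 217 over 33.5%, or 8.84 per Mb. The ratio to random placement was lowest on 2R, at 1.57. It came to 2.15 for 2L, 1.89 for 3L and 2.04 for 3R. Median lengths lay between 30550.5 bp on 2L and 32771 bp on 3R. Arm 2R also had the longest mean gap of the 4 arms, at 6951.1 bp, against 5793.8 to 6054.4 bp for the others.

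Each arm was cut into 5 zones of equal length, numbered from the centromere end outward. Zones 1 to 5 of the 4 arms together had 37.5%, 35.0%, 35.0%, 38.1% and 33.1% of their bases in long gaps, a narrow range with no steady change along the arm. Single arms departed from this. Zone 2 of 2L had 21.5%, and the other zones of 2L had 33.3% to 40.9%. Zone 5 of 3R, at the telomere end, had 28.0%, and zone 4 next to it had 42.4%. The combined list, which defines the gaps, covered 30.4% of zone 2 of 2L and 30.3% of zone 5 of 3R, against 23.3% of the 4 arms. In zone 2 of 2L, replicate 1 covered 3.80%, below its 3.96% over the 4 arms. Replicate 2 covered 5.28% there, above its 3.19%. Zone 5 of 3R was above these averages in both, with 6.99% in replicate 1 and 4.41% in replicate 2. The highest share was in zone 2 of 2R, at 45.1%. The 2 Mb next to the centromere end had 32.8% over the 4 arms.

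**Figure D2:**
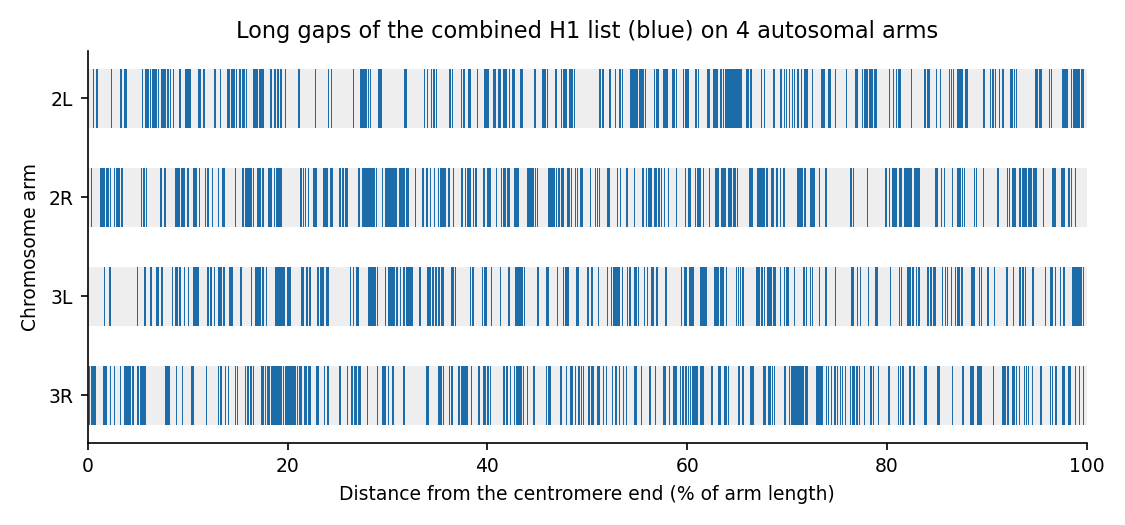
Each row is an arm and each blue bar is a long gap, placed by distance from the centromere end in percent of arm length (horizontal axis). Long gaps occur along the whole of each arm, with sparse stretches between 20% and 40% of 2L, where they take 21.5% of bases, and beyond 80% of 3R, where they take 28.0%.

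The 10 longest gaps lay on 3R, 2L and 2R. Arm 3R had 6 of them, 2L had 3, 2R had 1 and 3L had 0. The longest was on 2L at 8053041 to 8241958 and measured 188918 bp. Neither replicate had a cluster in it, and the clusters at its edges measured 1088 and 2255 bp with fold enrichments of 1.39 and 1.37. These folds are 2 raised to the authors' score, read as a log2 of ChIP over input. The next was on 3R at 20352770 to 20531029 (178260 bp), with 1 cluster of replicate 2 that covered 1365 bp and no cluster of replicate 1. Also on 3R were gaps at 16907783 to 17057518 (149736 bp), 1009669 to 1156876 (147208 bp), 19793651 to 19940358 (146708 bp), 24849354 to 24991754 (142401 bp) and 12001005 to 12136874 (135870 bp). In the gap at 1009669, a cluster of replicate 1 covered 1340 bp. In those at 16907783 and 24849354 a cluster of replicate 1 reached in by 59 and 197 bp. The others of the 10 were at 10191318 to 10325122 (133805 bp) and 21415464 to 21543954 (128491 bp) on 2L and at 3984109 to 4113917 (129809 bp) on 2R, with no replicate cluster. The longest on 3L, at 18732490 to 18849479 (116990 bp), had none either. In all, 6 of the 10 had no cluster of either replicate. Of the 20 clusters at their edges, 11 were under 1301 bp, the shortest length in the replicate lists.

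Long gaps lay next to each other more often than gaps in random order would. In 157 cases 1 cluster alone stood between 2 long gaps, against a mean of 64.7 for gaps in random order, a ratio of 2.43. Arm 2R had 35 such cases, at a ratio of 1.86, and the other arms had 40 to 42 each, at ratios of 2.52 to 2.84. After a long gap the next gap was long in 17.8% of cases, and after any other gap in 6.46%. Its median length was 4721 bp after a long gap and 2084 bp after any other gap. With the limit scaled as above, the list of replicate 1 had 13 such cases against 9.33, a ratio of 1.39. That of replicate 2 had 25 against 11.4, a ratio of 2.20. These ratios rest on few cases.

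The clusters between long gaps came in blocks of very unequal size. There were 877 blocks, with a median of 6 clusters (middle 50% 2 to 17) and a median span of 33.1 kb (7.85 to 97.6 kb). Blocks of 1 or 2 clusters numbered 157 and 91, against 64.7 and 59.9 for random order. Blocks of 41 clusters or more numbered 74, against 42.4. Those of 11 to 20 clusters numbered 133, against 217.3. Clusters covered 36.4% of block bases in the combined list, 5.97% in replicate 1 and 4.90% in replicate 2. The longest block, on 3L at 23336236 to 23967991, spanned 631.8 kb with 120 clusters. It was covered to 45.3% in the combined list, 5.14% in replicate 1 and 14.7% in replicate 2.

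**Figure D3:**
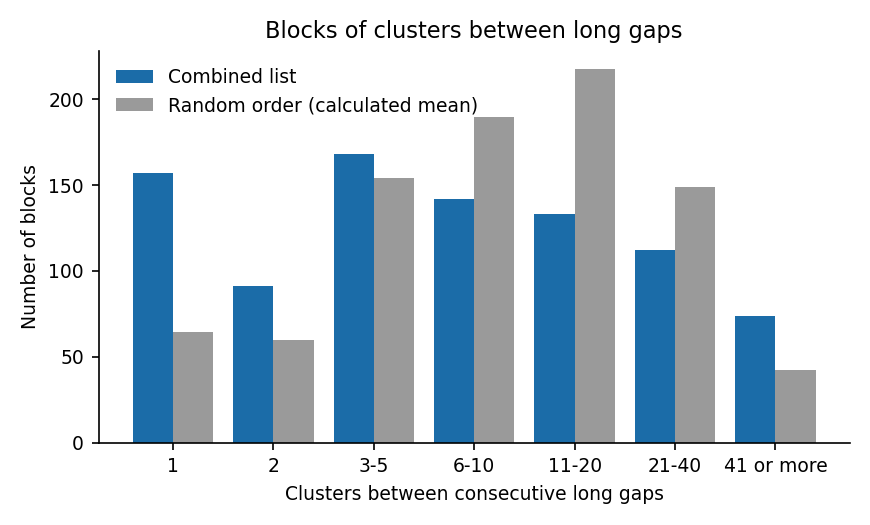
Number of blocks (vertical axis) by the number of clusters between consecutive long gaps (horizontal axis), for the combined list (left bars) and for the calculated mean of gaps in random order (right bars). The smallest and the largest blocks exceed random order, with 157 against 64.7 for 1 cluster and 74 against 42.4 for 41 or more, and blocks of 6 to 40 clusters fall short of it.

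Runs of long gaps made up near-empty stretches of up to 422.4 kb. A run was counted where 3 or more long gaps followed each other with at most 2 clusters between neighbours. There were 53 runs with 185 of the 881 long gaps, and 17 lay on 2R, 13 on 2L, 12 on 3R and 11 on 3L. Another 464 long gaps stood alone. The run with the most gap bases was on 3R at 19574947 to 19997328. It held 6 long gaps, from 21332 to 146708 bp, over 422.4 kb with 8 clusters of the combined list, 2 of replicate 1 and 0 of replicate 2. The next, on 2R at 5796939 to 6080815, held 6 long gaps over 283.9 kb, with 6 combined clusters, 2 of replicate 1 and 0 of replicate 2. A run near the telomere end of 2L, at 63504 to 365785, had 4 long gaps in 302.3 kb, and 3 clusters of replicate 1 and 0 of replicate 2 lay there. The run on 2L at 10191318 to 10443088 had 3 long gaps in 251.8 kb, which took 98.8% of it, and 1 cluster of replicate 2. The last of the 5 was near the telomere end of 3L at 120809 to 367751, with 5 long gaps in 246.9 kb and 1 cluster of replicate 1. Clusters of the combined list covered from 1.22% to 3.18% of these 5 runs, against 23.3% of the 4 arms. The runs were chosen by gaps of this same list, so the low coverage follows from the choice.

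At the scale of 1 Mb the share of bases in long gaps varied widely without reaching 0. Over 95 full windows it averaged 36.0% ± 11.6 (SD over windows), from 7.85% to 80.7%. It was above 50% in 8 windows, of which 3 lay on 2L, 3 on 3R, 1 on 2R and 1 on 3L. The highest was 3R from 5 to 6 Mb, where 14 long gaps with a median of 49822 bp and a longest of 105708 bp took 80.7%. That window held 47 combined clusters, 10 of replicate 1 and 2 of replicate 2. Replicates 1 and 2 covered 2.12% and 0.232% of it. The next was 2L from 8 to 9 Mb at 62.2%, home of the longest gap, with 10 clusters of replicate 1 and 12 of replicate 2. The lowest was 2L from 17 to 18 Mb at 7.85%, with 3 long gaps of at most 31237 bp and 193 combined clusters, 24 of replicate 1 and 39 of replicate 2.

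Few clusters of either replicate lay in the long gaps. This is not independent of the choice of members, because the combined list was made from the same libraries. Of the clusters on the 4 arms, 94.1% of those of replicate 1 and 97.4% of those of replicate 2 overlapped a combined cluster. No cluster of replicate 1 met 684 of the 881 long gaps (77.6%, 95% Wilson interval 74.8 to 80.3), and none of replicate 2 met 842 (95.6%, 94.0 to 96.7). Both replicates were absent from 651 (73.9%, 70.9 to 76.7). Over all positions on the 4 arms, 62.2% of stretches of 20000 bp had no cluster of replicate 1, 71.7% none of replicate 2 and 48.8% none of either. For stretches as long as the members, the shares were 45.9%, 59.3% and 33.3%. The intervals cover counting error only. They treat the gaps as independent, although long gaps were grouped, and measure no spread between samples.

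Replicate 1 reached into long gaps more often than replicate 2. It had 212 such clusters of 2295 (9.24%), and replicate 2 had 40 of 1821 (2.20%). Most crossed an edge, and 71 of replicate 1 and 10 of replicate 2 lay wholly inside. Those inside were a median of 7058 bp from the nearer edge in replicate 1 and 10306.5 bp in replicate 2. Their median score was 0.62, against 0.65 for clusters of replicate 1 outside long gaps, and 0.57 against 0.59 in replicate 2, on the log2 scale. On each of the 4 arms more gaps held a cluster of replicate 1, in 17.5% of gaps on 2L and from 22.6% to 24.5% of those on the other arms. For replicate 2 these shares were between 2.45% on 3R and 7.37% on 3L. Both replicates had a cluster in 6 long gaps, and in 1 of these, on 3L at 8904929 to 8928427, the clusters shared bases, namely 8 bp.

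Coverage inside the long gaps was 0.399% in replicate 1 and 0.0543% in replicate 2, a mean of 0.227% ± 0.244 (SD, n = 2). Outside them on the same arms it was 5.94% and 4.93%. Clusters of replicate 1 met 19.1% of long gaps under 30000 bp, 24.7% of those of 30000 to 50000 bp and 25.9% of longer ones. For replicate 2 the shares were 5.20%, 3.77% and 3.78%. A longer gap has more bases that a cluster can meet, and per Mb of gap the clusters became fewer with length. Replicate 1 had 8.29, 7.58 and 4.14 clusters per Mb in the same length classes, and replicate 2 had 2.12, 0.993 and 0.591. These counts include clusters that cross an edge, which were 141 of 212 in replicate 1 and 30 of 40 in replicate 2. Every gap has an edge at each end whatever its length, so such clusters alone lower the number per Mb in longer gaps. The fall therefore cannot show whether longer gaps are emptier.

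The replicates differed beside the gaps. In the 10000 bp outside each edge, replicate 1 covered 7.66% of bases, above its 5.94% for all sequence outside long gaps. Replicate 2 covered 3.45% there, below its 4.93%. Over the whole 10000 bp the replicates thus differed from their surroundings in opposite directions, and their mean was 5.55% ± 2.98 (SD, n = 2). The combined list covered 39.3% there, against 36.2% outside long gaps. Replicate 1 was above its 5.94% only in the first 3 kb outside an edge. From 3 to 4 kb out both replicates were below their values outside long gaps, at 5.39% and 2.43%. In the first 1000 bp, which the edge cluster of the combined list fills, replicate 1 covered 14.02% and replicate 2 covered 4.53%. From 5 to 6 kb out, replicate 1 was at 4.76%, replicate 2 at 2.28% and the combined list at 21.9%. From 20 to 21 kb out they were at 3.49%, 2.34% and 19.8%. Over the 4 arms the values were 3.96%, 3.19% and 23.3%, and the outer distances can lie in the next long gap.

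**Figure D4:**
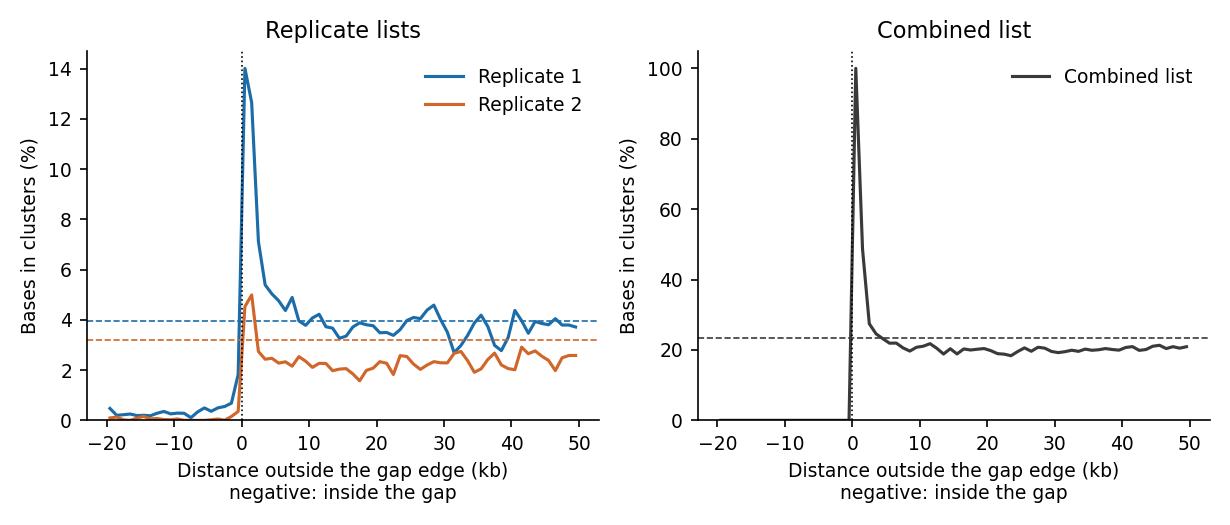
Bases in clusters (vertical axis, percent) by distance from the edge of a long gap in kb (horizontal axis, negative inside the gap), for replicates 1 and 2 (left) and the combined list (right), with dashed lines at the value for the 4 arms. The combined list is at 0 inside by choice of members, and replicate 1 peaks at 14.02% in the first kb outside while replicate 2 reaches 4.53% there.

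The clusters that bound long gaps were shorter than other clusters and had nearly the same scores. The 1605 edge clusters had a median length of 1357 bp, and the 10481 other clusters 1570 bp. Among the edge clusters, the 157 that stand alone between 2 long gaps had 1206 bp. Of edge clusters 54.6% reached 1301 bp, against 66.1% of the others. The difference in median length held on all 4 arms, with 1340.5 bp against 1586 bp for 2L, 1334 bp against 1557 bp for 2R, 1404 bp against 1554 bp for 3L and 1352.5 bp against 1581 bp for 3R. Median fold enrichment was 1.339 for edge and 1.344 for other clusters. The reduced input count, taken from the scores, reflects input reads only up to a factor that can differ between clusters. It was 154.2 per kb for edge and 151.5 per kb for other clusters, a ratio of 1.02. By arm it was higher at edges on 2L, 3L and 3R and lower on 2R, with 136.0 against 148.7 per kb. Because edge clusters were selected on the same list, these values carry no test.

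The replicates also differed in how many edge clusters they held. A cluster of replicate 1 overlapped 320 edge clusters (19.9%) and 1818 of the others (17.3%). For replicate 2 these were 127 (7.91%) and 1598 (15.2%). Of the 157 clusters alone between long gaps, 28 met a cluster of replicate 1 and 8 a cluster of replicate 2. No test separates the replicates here, since each is 1 library.

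An account free of the choice of members comes from the replicates alone, by measuring one in the empty stretches of the other. Gaps of 100000 bp or more in the list of replicate 1 numbered 235 and took 39.0% of the 4 arms. Replicate 2 covered 1.71% of their bases and 4.13% of the rest, a ratio of 0.414. In the other direction, 281 such gaps of replicate 2 took 60.0% of the arms, and replicate 1 covered 3.14% of them and 5.19% of the rest, a ratio of 0.605. The mean ratio was 0.510 ± 0.135 (SD, n = 2 directions). Both directions use the same 2 libraries, so this SD is not a spread between independent observations. The ratio was below 1 on every arm in both directions, from 0.302 to 0.472 for stretches of replicate 1 and from 0.544 to 0.633 for those of replicate 2. With 2 libraries, no exact test over samples can reach 0.05, so none is given.

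The coverage of each replicate fell steadily with distance from the other. Within clusters of replicate 1, replicate 2 covered 8.98% of bases. From 5 to 10 kb away it covered 3.61%, from 20 to 50 kb 2.03% and beyond 100 kb 1.31%, against 3.19% over the 4 arms. Replicate 1 covered 11.2% within clusters of replicate 2, then 4.45%, 3.14% and 2.49% at the same distances, against 3.96%. Both lists thus fell below their arm average at 10 to 20 kb from the other, at 2.87% for replicate 2 and 3.79% for replicate 1. Neither reached 0, so stretches empty in one replicate held some clusters of the other.

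**Figure D5:**
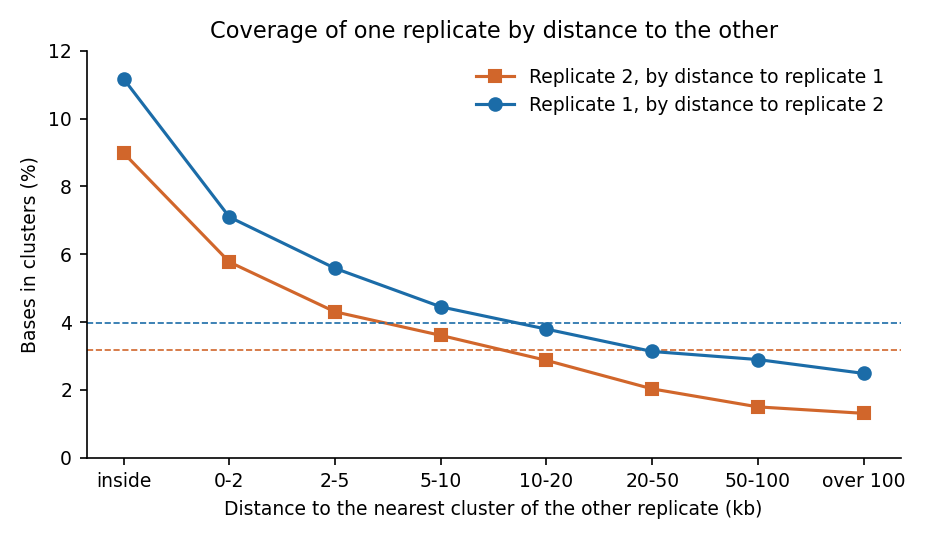
Bases in clusters of one replicate (vertical axis, percent) by distance to the nearest cluster of the other in kb (horizontal axis), with dashed lines at the value for the 4 arms. Squares show replicate 2, at 8.98% inside clusters of replicate 1 and 1.31% beyond 100 kb. Circles show replicate 1, at 11.2% and 2.49%.

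Long gaps took 35.7% of the 4 autosomal arms, against 70.1% of X, where 249 gaps of 20000 bp or more were found. Per Mb they numbered 9.12 on the autosomal arms and 11.1 on X. Their median length was 31349 bp on the autosomal arms and 42769 bp on X, and the longest was 188918 bp on the autosomal arms, against 431005 bp on X at 15578366 to 16009370. The mean gap was 6117.3 bp on the autosomal arms and 17885.8 bp on X, so the same limit means less on X. At 20000 bp the autosomal arms had 881 long gaps against 466.6 for random placement, a ratio of 1.89, and X had 249 against 377.9, a ratio of 0.659. With the limit at the same multiple of the mean gap, which is 58.5 kb on X, the share of gaps past it was 7.29% on the autosomal arms and 8.56% on X. The ratio to random placement was then 1.89 on the autosomal arms and 2.26 on X. No test of this difference was made, since the combined list is not replicated.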

How the data were processed

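H1 ChIP and input DNA of fly head nuclei were sequenced. The submitters' processing notes name Bowtie 0.12.7, a read aligner. Not given in the sources used here are the caller, its threshold and how both replicates were joined into 1 list. The authors deposited a list of clusters for each ChIP replicate and a combined list, in coordinates of FlyBase release 5, per the file headers, given here 1-based. The score the authors deposited for each cluster was read from the values as log2 of ChIP over input, since 2 raised to it was a ratio of whole numbers times a constant per list (divisors up to 2000, tolerance 1e-12) for 99.93% to 99.97% of clusters. The divisor of this ratio in lowest terms is the reduced input count. It is known only up to a simple factor, which can differ between clusters.

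Gaps were taken between consecutive clusters of an arm in Python 3.11.15 with NumPy 2.4.6. Every base of an arm counts, whether or not short reads can be placed there uniquely; that share is not known. Means for random placement and random order are exact formulas for uniform spacings and for shuffled ranks, checked on drawn positions. No genome or annotation of release 5 was used, so no gene or sequence is given. Regions named are the 10 longest gaps, the longest of each arm, the 5 runs with most gap bases and 3 gaps on each side of the limit. Windows named were chosen after their values were seen. The members, measures and limits were chosen with earlier results of these data known. No paired analysis was possible because the input samples have no list and no result comes from a test between groups. SD values over replicates have n = 2 and may be technical.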

Additional observations from a re-analysis of the deposited data

How the results depend on the processing

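Of 85 alternative values, 59 stayed close to the reported one, 24 moved further and 2 turned to the other side of 1. For numbers, numbers per Mb and ratios to random placement or order, close means within 1.5 times. For coverages and the coverage ratio in empty stretches it means within 1 SD (n = 2). Values of 1 replicate or direction alone always lie within that band, so their label was fixed in advance. Shares use a 95% Wilson interval that counts each gap or each 20000 bp as independent. Differences of edge clusters use a 95% interval of the edge median over clusters. Both treat members of 1 list as replicates and measure no spread between samples. Limits scaled to the mean gap, also for X and the replicate lists, were chosen after seeing the data. Without replicate 1 or without replicate 2, gaps free of replicate clusters made up 77.6% to 95.6%. No paired analysis was possible because no list exists for the input samples. Depth is unknown.

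At 15000 bp the ratio to random placement was 1.17, the share of the arms 42.0% and that of the centromere-end zone 44.2%. At 30000 bp, 477 gaps had a ratio of 5.11, shares of 25.5% and 26.8%, and a score difference between edge and other clusters of -0.0021. The higher-scoring 50% of the whole combined list left 4695 clusters on the 4 arms, and the ratio turned to 0.789. Shares were then 68.3% and 70.4%, and the adjacency ratio was 1.37. Free of replicate clusters were 34.5% of gaps, with 1.60% replicate coverage and a length difference of -393.5 bp. With only clusters of at least the shortest replicate length, the ratio turned to 0.963, with shares of 50.2% and 52.4%, 61.4% of gaps free, and differences of -0.011 in score and -121.5 bp in length. Fewer clusters raise the mean gap by construction, to 18.5 and 10.1 kb. The 2 Mb at the centromere end had 32.8%. With overlap by 50% of the replicate cluster, 90.7% of gaps were free. On X the scaled limit left 4.42 gaps per Mb.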
